A study of Mus musculus with 71 samples.

Results

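The expression of 10 target genes of the transcription factor p53 was examined in R1 mouse embryonic stem cells (mESCs) that do or do not carry H1c, H1d and H1e, genes of the linker histone H1. The genes were taken as a fixed list of well-known targets: Cdkn1a, Mdm2, Ccng1, Trp53inp1, Sesn2, Zmat3, Bax, Phlda3, Btg2 and Pmaip1. They are 10 of the 24138 genes with a symbol in the RNA-seq tables, and the rule that lists them uses no measured level. The series holds 71 samples, of which 4 are RNA-seq libraries, 2 from WT mESCs and 2 from mESCs in which all of H1c, H1d and H1e are knocked out (H1-TKO), made from poly(A) RNA of cells grown on gelatin with LIF. H1-TKO cells came from single-cell clones picked after CRISPR editing, and the number of clones behind the RNA-seq libraries is not given in the sources used here. The study describes the 2 libraries of a genotype as independent biological samples, and whether they share a clone is not given.

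The genotype of a library is given here by the names in the tables, KO for H1-TKO and R1 for WT. The sample labels state the reverse for all 4 libraries. Each library equalled its own WT or TKO column of the study's source data in 1999 of the 1999 rows that were given, within a relative tolerance of 0.001, and this was used for the naming. The knocked-out genes had few reads, and their levels were not used for the naming. H1f2 (H1c) had normalized counts of 11.6 and 56.7 in the R1 libraries and 18.7 and 7.4 in the KO libraries, H1f3 (H1d) 3.9 and 41.4 against 1.1 and 0.0, and H1f4 (H1e) 5.4 and 19.6 against 0.0 and 2.1. Over both libraries H1f3 had 43 reads in R1 and 1 in KO, and H1f4 had 25 and 2. The log2 difference of H1f3 was -3.31 with limma (adjusted p = 0.105), and it was called lower in the KO libraries by DESeq2 (adjusted p = 0.029) but not by edgeR (adjusted p = 0.0681). H1f2 was called by none of these tools. All directions below are those of the KO libraries against the R1 libraries, and under the sample labels every one of them would turn round.

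p53 is a transcription factor that is kept low in unstressed cells by the ubiquitin ligase MDM2, and DNA damage or other stress stabilizes it. It then binds a site of paired half-sites in or near its target genes. Its targets arrest the cell cycle, start apoptosis, repair DNA, and, through MDM2 and other inhibitors, switch p53 off again. Mouse embryonic stem cells carry much p53 protein, and they are known for a weak p21-dependent arrest. The comparison of KO with R1 libraries asks whether such a response accompanies the shifts of whole chromosomes that these libraries show.

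Sequences near the starts of the genes were read first, since a p53 site is what the listed genes share by definition. The search planned for this was CATG, a gap of 6 bases and CATG, which is the same on both strands, within 3 kb on either side of the annotated start in NCBIM37 (mm9). It was found at 2 of the 10 genes, Cdkn1a and Ccng1. This share of 20% was near the 17.9% of all 22225 protein-coding genes, so it does not set the p53 targets apart. A second search, added after that result had been seen, asked for the symmetric p53 consensus of 20 positions with both half-site cores exact, at least 18 positions matched and no spacer. It was found at 4 of the 10 genes (40%), against 812 of the 22225 genes (3.7%). As the second definition tried, it is given as a description, and no result below rests on it. Capitals in the sequences mark the 4-base cores of the half-sites. The first 2 are from the planned search, and the Cdkn1a sequence was found by both.
Cdkn1a, upstream: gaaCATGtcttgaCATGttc
Ccng1, upstream: aggCATGatggtgCATGttt
Ccng1, intron: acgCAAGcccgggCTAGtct
Zmat3, intron: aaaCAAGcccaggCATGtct

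The Cdkn1a sequence lies at chr17:29227873-29227892 on the plus strand, 42 bases before the start, and matches 19 of the 20 positions of the consensus. The upstream Ccng1 sequence lies at chr11:40569893-40569912 on the minus strand, 1090 bases before the start, with 17 matches. The intronic Ccng1 sequence, at chr11:40568438-40568457 on the minus strand, is 365 bases after the start and has 19 matches. The Zmat3 sequence, at chr3:32263253-32263272 on the minus strand, is 1337 bases after the start and matches all 20 positions. Pmaip1 held a match of 18 positions, 165 bases before its start. A match is not evidence of binding, and its absence says only that these letters are not in this window.

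The deposited value of a gene is its read count per RefSeq accession divided by a size factor of the library. Genes with several accessions sat low in these tables. The summed mean was under 10 normalized counts for 77.1% of the 4715 protein-coding genes that have more than 1 accession, against 41.0% of the 15732 that have 1. Of the p53 targets, Cdkn1a, Mdm2 and Trp53inp1 have 2 accessions each, and the other 7 have 1. All 3 genes with 2 accessions had 1 accession at 0 in every library. The 10 genes thus gave 13 accessions, of which 9, from 9 genes, had a mean of at least 10 normalized counts and were tested. The 4 left out were both accessions of Cdkn1a and the empty accessions of Mdm2 and Trp53inp1.

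In the KO libraries 5 of the 9 tested p53 targets were higher and 0 were lower at an adjusted p under 0.05 (limma on log2(normalized count + 1), Benjamini-Hochberg adjustment over 11113 accessions). Over all accessions tested, 9.84% were called higher and 10.7% lower. The 5 were Btg2, Pmaip1, Phlda3, Ccng1 and Zmat3. At an unadjusted p under 0.05 limma gave 6 higher and 0 lower, edgeR on the recovered reads gave 4 and 0 at an adjusted p under 0.05, and DESeq2 6 and 0. Under these rules the shares of all accessions called higher and lower were 17.8% and 19.8% unadjusted, 9.51% and 9.95% with edgeR, and 10.2% and 11.6% with DESeq2. The median log2 fold change of the 9 was 0.85, beside -0.03 over all accessions tested. This median is the value of Mdm2, which was not called. Mdm2 and Trp53inp1 each have 1 accession at 0 and few reads on the other, so their values may not give their mRNA levels. In 8 of the 9 genes both KO libraries lay above both R1 libraries, which was so for 32.2% of all accessions tested. Trp53inp1, one of the 8, had an R1 mean under 10 and passed the filter only through the KO libraries. Without it, a check chosen after the data were seen, the count was 7 of 8 and the median 0.83. The calls were not stable to the choice of variance model or to the loss of a KO library. Without a trend in the variance 0 of the 9 were called (43 accessions higher and 37 lower in all), and without either KO replicate 1 or KO replicate 2 only Btg2 was. With a filter at a mean of 1 or with none, 3 were called higher, beside 702 of 16886 and 624 of 20632 accessions.

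**Figure D1:**
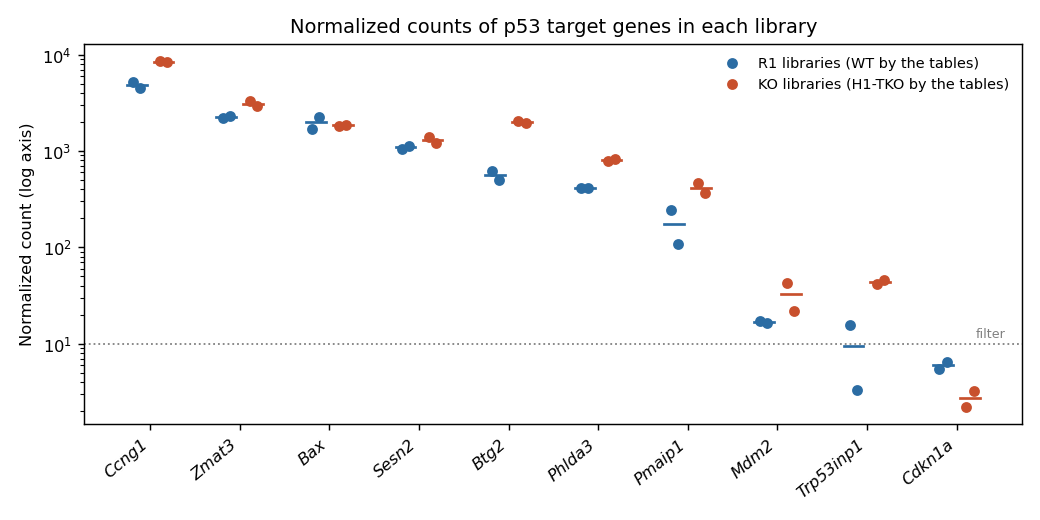
Normalized counts (log axis) of the p53 target genes in each library, ordered by the mean of the R1 libraries. Points are libraries, short lines the mean of 2 libraries, and the dotted line the minimum mean of 10 for testing. KO points lie above R1 points for 8 of the 9 tested genes, they lie within the R1 range for Bax, and Cdkn1a is under the minimum in all libraries.

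Among the targets that act on cell division, Btg2, an antiproliferative gene, changed most of the genes called. Its normalized counts were 622.2 and 497.4 in the R1 libraries and 2050.4 and 1932.7 in the KO libraries. The KO libraries were thus well above both R1 libraries, with a log2 fold change of 1.84 ± 0.16 (SE, n = 2 per genotype, limma adjusted p = 0.00153), or 3.57-fold. It was the only target called in all 4 fits that left out a library. Ccng1, cyclin G1, which works in a feedback loop with MDM2, had 5215.8 and 4502.7 in the R1 libraries and 8540.0 and 8439.4 in the KO libraries. Its log2 fold change was 0.81 ± 0.12 (SE, n = 2 per genotype, limma adjusted p = 0.00694), with no overlap between the groups.

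Cdkn1a encodes p21, the inhibitor of cyclin-dependent kinases that carries the p53-dependent arrest. Its accession NM_007669 had 5.4 and 6.5 normalized counts in the R1 libraries and 2.2 and 3.2 in the KO libraries, that is 7, 6, 2 and 3 reads. NM_001111099 was at 0 in all 4. With reads this few no change was tested, and since genes with several accessions sat low, these values do not give the level of Cdkn1a mRNA.

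Among the targets that act in apoptosis, Pmaip1, which encodes the BH3-only protein NOXA, had 242.8 and 109.1 in the R1 libraries and 463.9 and 366.5 in the KO libraries. The R1 libraries differed from each other by more than the KO libraries did, and the groups did not overlap. The log2 fold change was 1.34 ± 0.37 (SE, n = 2 per genotype, limma adjusted p = 0.042), but edgeR gave an adjusted p of 0.0533. Without either KO library it was not called, with log2 fold changes of 1.17 and 1.5. Leaving out R1 replicate 1 moved it to 1.91 and leaving out R1 replicate 2 to 0.76, both called. Phlda3, a repressor of AKT, was even within each group, with 413.5 and 409.0 in the R1 libraries against 786.7 and 819.4 in the KO libraries. Its log2 fold change was 0.96 ± 0.15 (SE, n = 2 per genotype, limma adjusted p = 0.00828). Bax, the pore-forming effector of mitochondrial apoptosis, had 1684.3 and 2273.2 in the R1 libraries and 1825.7 and 1880.0 in the KO libraries. Both KO values lay between the R1 values, and the log2 difference of -0.08 had a 95% interval from -0.46 to 0.31 (limma adjusted p = 0.754). Its sign depended on the scaling and on the R1 library left out.

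Trp53inp1, which acts in cell death and autophagy, had 15.5 and 3.3 normalized counts in the R1 libraries and 41.9 and 46.3 in the KO libraries on NM_001199105, and 0 on NM_021897. The groups did not overlap, the R1 libraries were far apart, and the log2 difference of 2.42 ± 0.73 (SE, n = 2 per genotype) had a limma adjusted p of 0.0536. It passed the test in 3 of the 12 alternatives that keep all libraries, with a pseudocount of 5, with DESeq2 and with a replicate block, and failed in the other 9, with edgeR (adjusted p = 0.0686) and without a variance trend (0.118) among them. The log2 difference was 3.40 without R1 replicate 1 and 1.45 without R1 replicate 2. It was 2.49 without KO replicate 1 and 2.35 without KO replicate 2. Each of these fits leaves 1 library in a genotype, so its p-value does not measure the spread of that genotype.

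Of the targets with other roles, Zmat3, a zinc finger RNA-binding protein, had 2215.7 and 2284.1 in the R1 libraries and 3307.6 and 2911.1 in the KO libraries. The log2 fold change was the smallest of those called, 0.46 ± 0.12 (SE, n = 2 per genotype, limma adjusted p = 0.0391). Its adjusted p was 0.0655 with a filter at a mean of 1, and without either KO library it was not called. Sesn2, a sestrin that restrains mTORC1, had 1053.6 and 1134.4 in the R1 libraries and 1405.9 and 1218.6 in the KO libraries. Both KO values were higher, but the log2 difference of 0.26 had a 95% interval from -0.07 to 0.59 (limma adjusted p = 0.221). None of the 13 alternatives that keep all libraries called it. With a library left out the log2 difference was 0.21 without R1 replicate 1 and 0.31 without R1 replicate 2. It was 0.16 without KO replicate 1 and 0.36 without KO replicate 2. Mdm2, the ligase that removes p53, had 17.1 and 16.4 on NM_010786 in the R1 libraries and 43.0 and 22.1 in the KO libraries. The KO libraries differed from each other about as much as from the R1 libraries, and the log2 difference of 0.85 had a 95% interval from -0.41 to 2.10 (limma adjusted p = 0.285). It was called in no alternative, and moved to 0.38 without KO replicate 1 and to 1.31 without KO replicate 2. NM_001288586 of Mdm2 was at 0 throughout.

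Levels were compared between genes only per kb of annotated exon, taken from GENCODE M1, and only for the 7 targets with 1 accession. In the R1 libraries Bax, at a mean of 1478 normalized counts per kb, and Ccng1, at 1384, were highest, and their ranges over the 2 libraries overlapped. Sesn2 followed with 314.8, Zmat3 with 278.2, Phlda3 with 263.8, Btg2 with 204.1 and Pmaip1 with 66.5, and no other neighbours in this order overlapped. In the KO libraries Ccng1 led with 2417, Bax had 1384, and Btg2 followed with 726.0, ahead of Phlda3 with 515.1, Zmat3 with 384.4, Sesn2 with 377.6 and Pmaip1 with 156.9. The KO libraries of Zmat3 (409.0 and 359.9) and Sesn2 (404.6 and 350.7) overlapped, so these 2 have no order there.

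In NCBIM37 the 5 genes called lie at chr1:135971747-135975697 (Btg2, minus strand), chr1:137662696-137665713 (Phlda3, plus), chr11:40562054-40568813 (Ccng1, minus), chr3:32233718-32264600 (Zmat3, minus) and chr18:66618258-66625204 (Pmaip1, plus). No exon of the 10 targets overlapped an exon of another GENCODE M1 gene. The chromosome of each gene was then taken into account. The median log2 difference of the accessions tested was 0.50 on chromosome 1, -0.24 on chromosome 8, -0.37 on chromosome 11 and -5.61 on chromosome Y, and between -0.09 and 0.07 on all others. Btg2 and Phlda3 lie on chromosome 1 and Ccng1 lies on chromosome 11. Relative to the median of its own chromosome, Btg2 stood at 1.34 and Phlda3 at 0.47 on the log2 scale, less than their changes before this step, and Ccng1 stood at 1.18, more than before. Of the other genes called, Zmat3 was at 0.48 and Pmaip1 at 1.30, on chromosomes with medians of -0.02 and 0.04. Among accessions of the same chromosome, 91.9% lay below Btg2, 73.9% below Phlda3, 90.5% below Ccng1, 76.5% below Zmat3 and 93.7% below Pmaip1, against 49.6% for Bax. The part of the shift of chromosome 1 in the higher counts of Btg2 and Phlda3 was not tested. The 6 tested targets on chromosomes other than 1, 8, 11 and Y had a median log2 difference of 0.66, with 5 of 6 above 0 and 2 called. Over all accessions tested, 5394 of 11113 lay above 0 and 9.84% were called higher. In a fit without these chromosomes 2 of the targets were called too, beside 824 of 8975 accessions higher.

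**Figure D2:**
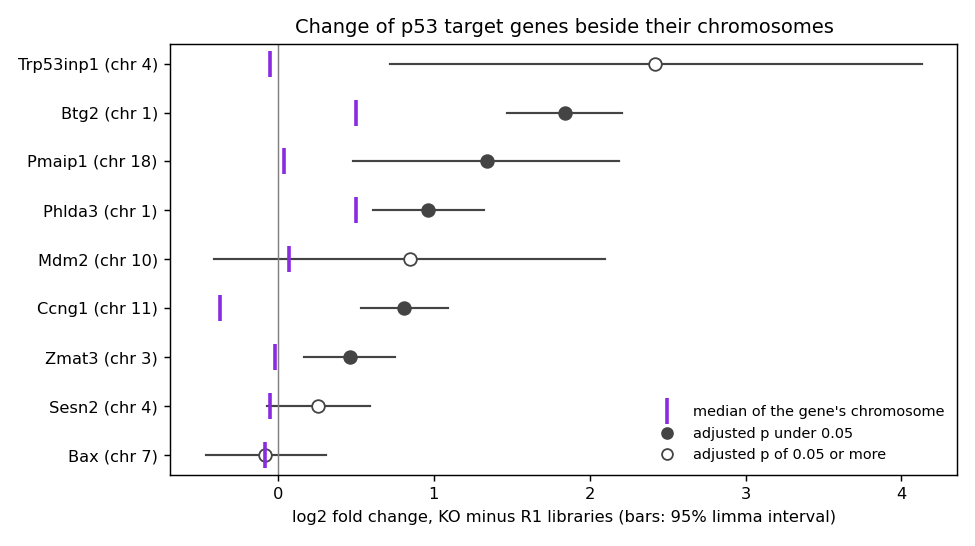
Log2 fold change of each tested p53 target, KO minus R1 libraries, with its 95% limma interval and the median of its chromosome. Filled points passed an adjusted p under 0.05. The median of chromosome 1 (0.50) lies below Btg2 and Phlda3, that of chromosome 11 (-0.37) lies below Ccng1, and Bax lies on the median of its own.

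The next question was whether other genes of the p53 network moved. Of 32 further p53 targets, 27 were tested, 8 were higher and 1 was lower in the KO libraries (29.6% and 3.7%, beside 9.84% and 10.7% of all accessions), and their median log2 difference was 0.45. Ei24 and Fas passed the filter only through the KO libraries, and without them 7 of 25 were called higher, with a median of 0.40. The higher ones included Bbc3, which encodes the BH3-only protein PUMA, with 348.3 and 338.1 in the R1 libraries and 567.4 and 655.1 in the KO libraries (log2 fold change 0.83 ± 0.17 SE, limma adjusted p = 0.0175). Plk2, a polo-like kinase, had 731.6 and 513.7 against 1922.6 and 1721.0 (1.57 ± 0.19, limma adjusted p = 0.00432). Ddit4, an inhibitor of mTORC1, had 581.9 and 403.6 against 1195.4 and 1143.8 (1.27 ± 0.20, limma adjusted p = 0.00808). Ckap2, a spindle protein on chromosome 8, had 2389.5 and 2163.0 against 4676.0 and 4595.2 (1.03 ± 0.12, limma adjusted p = 0.00364).

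Ephx1 (an epoxide hydrolase, log2 fold change 2.33), Ercc5 (a nuclease of nucleotide excision repair, 1.38), Polk (a translesion polymerase, 0.87) and the death receptor gene Fas (3.90) were also higher, Fas from 3.9 and 0.0 normalized counts in the R1 libraries to 44.1 and 23.2. Ephx1 and Ercc5 lie on chromosome 1, with its median of 0.50. The one called lower was Plk3, with 332.8 and 375.2 in the R1 libraries and 170.8 and 122.2 in the KO libraries (log2 fold change -1.28, limma adjusted p = 0.0133). Without chromosomes 1, 8, 11 and Y in the fit, where fewer of these targets were tested, 5 were called higher and 1 lower. Of all 8975 accessions in that fit, 824 were called higher and 855 lower.

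Genes that act on p53 were then read. Of 17 regulators, 12 were tested through 13 accessions, 0 were higher and 3 (23.1%) were lower, beside 10.7% of all accessions, and the median was -0.33. At an unadjusted p under 0.05 limma gave 1 higher and 4 lower, beside 17.8% and 19.8% of all accessions. The 1 higher was Mdm4, which had an R1 mean of 2.8 and passed the filter only through the KO libraries. edgeR gave 0 higher and 3 lower, beside 9.51% and 9.95%, and DESeq2 1 and 3, beside 10.2% and 11.6%. The 3 that were lower encode kinases that respond to DNA damage. Chek1 and Chek2, kinases of the same signal that are named here after their values were seen, had log2 differences of 0.07 and 0.24 (limma adjusted p = 0.746 and 0.234). Atm had 1688.9 and 1932.8 in the R1 libraries and 1075.4 and 965.8 in the KO libraries (log2 fold change -0.83, limma adjusted p = 0.0105), Atr changed by -0.61 (adjusted p = 0.0279) and Prkdc by -0.51 (adjusted p = 0.0368). Trp53 itself, with 2 accessions, had 6.2 and 6.5 in the R1 libraries and 11 and 1.1 in the KO libraries on NM_001127233, and 0 on NM_011640, so its level was not measured here. Mdm4, which inhibits p53 and has 6 accessions, had 2.3 and 3.3 against 41.9 and 8.4 on NM_008575 (adjusted p = 0.103). Cdkn2a, whose product ARF inhibits MDM2, had 37.2 and 75.3 against 25.3 and 14.7 on NM_009877 (adjusted p = 0.0986).

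Genes of cell division that p53 and p21 are known to repress were read in the KO libraries too. Of 12, 11 were tested, 3 (27.3%, beside 9.84% of all accessions) were higher and 0 lower, with a median of 0.35. limma at an unadjusted p under 0.05 gave 7 higher and 0 lower, beside 17.8% and 19.8% of all accessions, and edgeR and DESeq2 each gave 3 and 0, beside 9.51% and 10.2% higher. The 3 were Cdc25c, the phosphatase that activates CDK1 (log2 fold change 0.98), and the mitotic cyclin genes Ccnb1 (0.56) and Ccnb2 (0.56).

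Lists of other stress responses were read in the same fit. Of the genes of the integrated stress response, which answers amino acid shortage and other stress through ATF4, 1 of 9 (11.1%) was higher and 0 were lower, with a median of 0.27. This share is near the 9.84% of all accessions called higher and is no result about the list. It was Asns, asparagine synthetase (log2 fold change 0.69). At an unadjusted p under 0.05 there were 2 higher and 0 lower, beside 17.8% and 19.8% of all accessions. edgeR and DESeq2 each gave 1 higher and 0 lower, beside 9.51% and 10.2% higher. Of those of the unfolded protein response, 2 of 10 were higher, the chaperone genes Hsp90b1 (0.92) and Pdia6 (0.74), and 0 were lower, with a median of 0.15. Unadjusted there were 3 higher and 2 lower, beside 17.8% and 19.8% of all accessions, so that the count lower is at the background share. edgeR and DESeq2 each gave 2 higher and 0 lower, beside 9.51% and 10.2% higher.

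Of the heat shock genes, 5 of 12 (41.7%, beside 10.7% of all accessions) were lower and 0 higher (0 also unadjusted, with edgeR and with DESeq2), with a median of -0.34. They were Hsph1 (log2 fold change -1.21), Dnajb1 (-1.16), Hspa1b (-1.11), Hspe1 (-1.11) and Hspa8 (-1.01), all of them chaperones or co-chaperones. Hspa1b has a near-identical copy in Hspa1a, so its reads are uncertain. Of the targets of NRF2, the factor of the oxidative stress response, 12 accessions were tested, 5 (41.7%, beside 10.7% of all accessions) were lower and 1 (8.3%, near the background of 9.84%) was higher, with a median of -0.63. Unadjusted there were 7 lower and 1 higher, beside 19.8% and 17.8% of all accessions. edgeR and DESeq2 each gave 4 lower, beside 9.95% and 11.6%, and 1 higher, beside 9.51% and 10.2%. Srxn1 (-1.48), Nqo1 (-1.26), Gsr (-1.24), Hmox1 (-0.99) and Gclm (-0.55) were lower, and the 1 called higher was Taldo1 (0.68). Gclm, at an adjusted p of 0.0497, was not called by edgeR or DESeq2. Nqo1, Gsr and Hmox1 lie on chromosome 8, with its median of -0.24. Calls in both lists also depended on the settings, with 0 called without a variance trend.

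**Figure D3:**
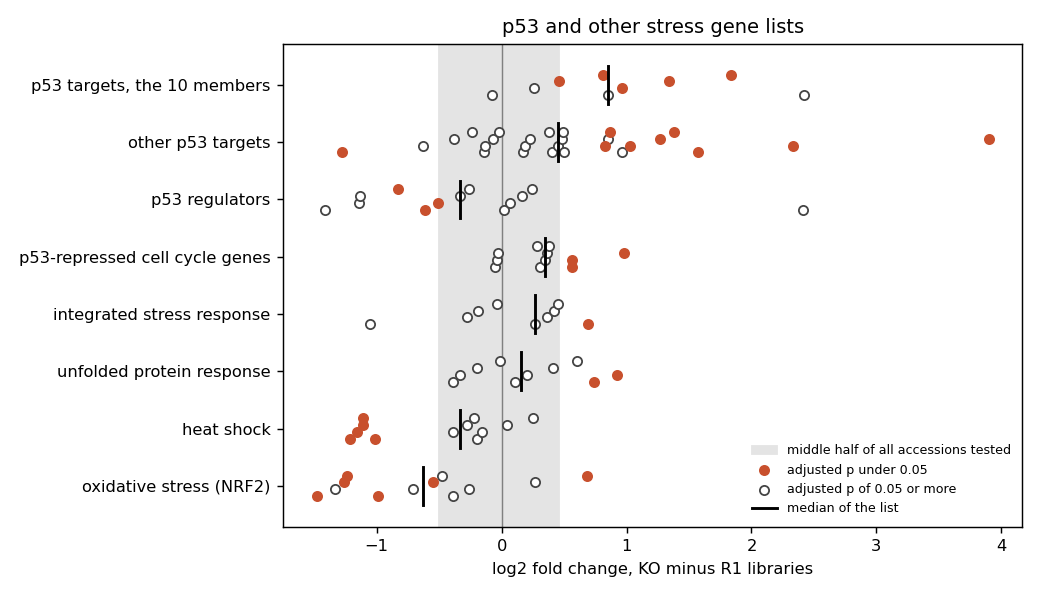
Log2 fold change, KO minus R1 libraries, of each tested accession in the p53 and other stress lists, with the median of each list. Filled points passed an adjusted p under 0.05, and the grey band spans the quartiles of all accessions tested (-0.50 to 0.46). The 10 p53 targets and the other p53 targets have medians of 0.85 and 0.45, heat shock genes -0.34 and NRF2 targets -0.63.

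The libraries also differed in depth and in markers. The recovered reads per library ranged from 6951619 to 10538507. Accession NR_046233, without a symbol in the table used for names, held 11.83% of the reads of R1 replicate 2 and between 1.98% and 2.08% in the other 3. Of 12 pluripotency markers 10 were tested, and 4 were higher (Klf4, Sox2, Tfcp2l1, Dppa5a) and 2 lower (Sall4, Tdgf1), beside 9.84% and 10.7% of all accessions. edgeR and DESeq2 each gave 3 higher, beside 9.51% and 10.2%, and 2 lower, beside 9.95% and 11.6%. The summed level of the 12 was 39794.6 and 50500.2 in the R1 libraries and 60326.6 and 60631.6 in the KO libraries. Nanog, with 4 accessions, was at 0 in every library. Like Nanog, the markers named below at 0 all have several accessions. Genes with several accessions sat low, so these zeros do not show that a gene was off, and the sums may miss such genes. The 10 early differentiation markers summed to 87.7 and 91.6 in the R1 libraries and to 48.5 and 63.2 in the KO libraries, with Sox17, Eomes, Fgf5 and Foxa2 at 0. The 10 fibroblast markers summed to 581.9 and 481.0 in the R1 libraries and 517.8 and 584.5 in the KO libraries, with Pdgfrb, Postn and Dcn at 0. Among them Acta2 fell from 217.2 and 180.0 to 2.2 and 0.0, Col1a1 from 195.5 and 148.3 to 34.2 and 53.7, and Thy1 rose from 109.4 and 125.4 to 449.5 and 510.8. The part of these differences in the p53 target counts was not tested. A bulk sample cannot tell apart more RNA per cell from more cells that express a gene.

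H3K27me3 peak lists, 1 per genotype by their sample labels and therefore without a replicate check, were compared with the gene starts. A peak within 2 kb of the start was listed for Zmat3 and Pmaip1 in WT mESCs and for Pmaip1 in H1-TKO mESCs. These 2 and 1 of the 10 genes stood beside 13% and 11.9% of all protein-coding genes. The WT peak at Zmat3, at chr3:32265186-32265416, had a score of 68.7, against a list minimum of 50.01 and a median of 78.8. The score rises as the p-value given by MACS falls. At Pmaip1 the WT score was 103.99 and the H1-TKO score 103.83. The other 8 genes, Btg2, Phlda3 and Ccng1 among them, had no listed peak in either genotype, also within 5 kb.

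**Figure D4:**
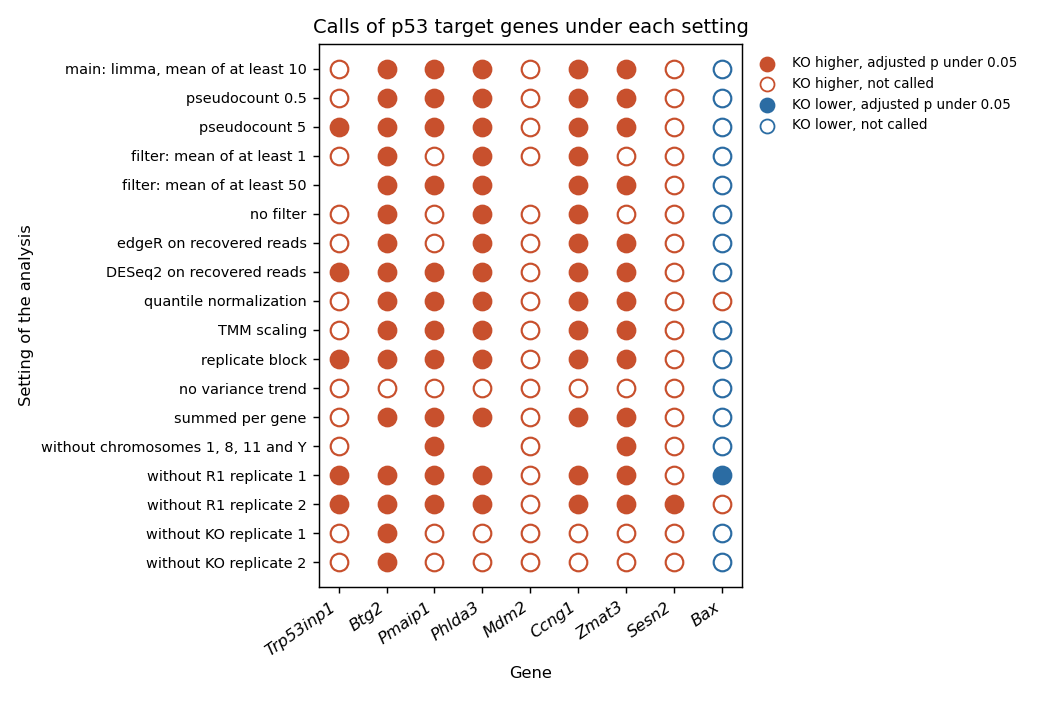
Calls of the 9 tested p53 targets under each setting of the analysis, with genes ordered by fold change. Filled circles passed an adjusted p under 0.05, orange circles are higher and blue ones lower in the KO libraries, and gaps are genes not tested. Btg2 is called in all settings that test it but 1, the fit without a variance trend, and none of the 9 is called there.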

How the data were processed

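Poly(A) RNA-seq was analysed in 4 libraries, and H3K27me3 peak lists in 2 samples. Reads were paired-end, and the authors aligned them to mm9 by Subread, counted unique alignments with featureCounts and divided them by DESeq2 size factors. The deposited signal is this normalized count per RefSeq accession. All values (100%) were whole multiples of 1 read within 0.02 reads, so reads were recovered, from 6951619 to 10538507 per library. Each deposited peak has a MACS score that rises as its p-value falls, from reads aligned with Bowtie2.

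Symbols (for 33650 of 34010 accessions, with no coordinates) were read from RefSeq's GRCm38.p6 gene table, and 31405 accessions could be placed on NCBIM37 with GENCODE M1. The 11113 accessions whose mean over the libraries reached 10 normalized counts were tested with limma 3.58.1 (R 4.3.3) on the scale log2(normalized count + 1), with a variance trend and no block, and adjusted by the Benjamini-Hochberg method. The added count shrinks fold changes of weakly expressed genes, with Trp53inp1 at 2.52, 2.42 and 1.91 for pseudocounts of 0.5, 1 and 5. The limma value is not always the smaller one, since edgeR gave Trp53inp1 2.18 and DESeq2 2.21. edgeR 4.0.16 and DESeq2 1.42.0 on recovered reads were alternatives, with other pseudocounts, filters, scalings, a replicate block, gene sums and libraries left out. In simulated data for KO against R1 with 11113 genes and a dispersion of 0.02, the limma step recovered 67 of 100 genes changed by 1 on the log2 scale and 97 of 100 changed by 2, with 8 false calls.

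The genes and lists were chosen with earlier results of these data known, so no p-value was adjusted over a list alone. Named were all 10 targets with every accession, other listed genes past an adjusted p under 0.05, and Trp53, Mdm4, Cdkn2a and the knocked-out genes. Outside this rule, and after their values were seen, Chek1, Chek2, Ei24, Hspa1a and the markers listed at 0 were named. Columns of the source data served only the library identity check. Python 3.11.15, numpy 2.4.6 and pandas 2.3.3 were used.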

Additional observations from a re-analysis of the deposited data

How the results depend on the processing

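The 2 libraries per genotype and the few reads of genes with several accessions limit what can be said. In all alternatives the 9 tested p53 targets kept their direction, except Bax, which was at 0.01 with quantile normalization and ranged from -0.29 to 0.14 on the log2 scale with a library left out (0.14 without R1 replicate 2). The choice that mattered most was the variance model. The causes of the changes below were not tested, other than that fewer libraries or more accessions enter the fit.

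With a filter at a mean of 1, 702 of 16886 accessions were called higher and 765 lower. With no filter these were 624 and 697 of 20632, and without a variance trend 43 and 37 of 11113. The p53 targets called higher were 3, 3 and 0 under these settings, and 2 without chromosomes 1, 8, 11 and Y, where only 6 were tested. In that last fit 824 of 8975 accessions were called higher and 855 lower. The median log2 difference of the p53 targets was 0.97 with edgeR, 0.98 with DESeq2, 0.97 with quantile normalization and 0.66 without those chromosomes.

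For the other lists, the filter at 1 and no filter each gave 1 regulator lower, 1 cell cycle gene higher, 2 heat shock genes lower and 3 NRF2 targets lower. Without a variance trend, 0 were called in each of these, 0 other p53 targets higher or lower, and 0 genes of the integrated stress and unfolded protein responses and 0 NRF2 targets higher. Heat shock genes called lower were 3 with quantile normalization, beside 1079 of all 11113 accessions, and 3 without the 4 chromosomes. There 2 NRF2 targets were lower and 5 other p53 targets higher, beside 855 lower and 824 higher of all 8975 accessions. DESeq2 gave 1 regulator higher.

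With a replicate block, 1521 accessions were called higher and 1778 lower, 6 p53 targets were called higher (Trp53inp1 added), 1 regulator was higher, 2 other p53 targets were lower and 1 gene of the integrated stress response was lower. Whether same-numbered libraries were prepared together is not given in the sources used here. Their deviations from the means of their genotypes correlated at 0.011, which cannot decide this. The block is therefore given only as an alternative. It lost none of the p53 targets called.

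Leaving out each library in turn gave 199 to 2682 accessions higher and 386 to 2786 lower, more without an R1 library and fewer without a KO library. The lone library left is then assumed to vary like the others. p53 targets called higher numbered 1 to 7, with 1 (Btg2) without either KO library, and lower 0 to 1 (Bax without R1 replicate 1). Regulators numbered 0 to 3 higher and 0 to 5 lower, other p53 targets 5 to 11 higher and 0 to 4 lower, cell cycle genes 0 to 8 higher and 0 to 1 lower. Integrated stress genes numbered 0 to 5 higher and 0 to 4 lower, unfolded protein genes 0 to 6 higher and 0 to 3 lower, heat shock genes 0 to 1 higher and 2 to 8 lower, and NRF2 targets 0 to 2 higher and 2 to 7 lower. H3K27me3 peaks with a score of at least 100 lay at 1 target in WT mESCs (Pmaip1), and windows of 1 and 5 kb changed no count of targets.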
